A study of Mus musculus with 30 samples.

Results

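The 10 integrin genes described here encode subunits found on T cells and on the leukocytes around them: Itgal, Itgam, Itgax, Itgb2, Itga4, Itgae, Itgb7, Itga1, Itgav and Itgb1. They were taken by gene symbol, without regard to their values, and all 10 were present in each of the 3 deposited count tables, which list 21983 genes (thymus DP with thymus CD4 SP) or 46095 genes (thymus CD8 SP, and both spleen populations). Each table holds 26 integrin subunit genes, so 16 others served as company. The libraries are bulk RNA-seq of T cell subsets sorted from C57BL/6 mice, 3 in each of 10 groups. The 5 populations were thymic double-positive cells (DP, with both CD4 and CD8), thymic CD4 single-positive cells (CD4 SP), thymic CD8 single-positive cells (CD8 SP), spleen CD4 cells and spleen CD8 cells. Each came from wild-type mice (WT) and from mice labelled CD4-Cre+ PRMT5fl/fl (CKO), in which Cre under the control of Cd4 sequences removes floxed Prmt5. Cd4-driven Cre acts from the DP stage, before the lineages part. What share of the cells carried the deletion was not tested. The WT mice are not labelled as carrying Cre, and whether a difference comes with Cre itself or with the loss of Prmt5 cannot be told apart. Age and sex are not among the labels.

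Integrins are adhesion receptors made of 1 alpha and 1 beta chain, and neither chain reaches the surface efficiently alone. On leukocytes the beta 2 chain (Itgb2, CD18) pairs with alpha L to form LFA-1, which binds ICAMs, with alpha M to form Mac-1, and with alpha X to form CD11c/CD18. The chains alpha 4 and alpha E share the beta 7 chain: alpha 4 beta 7 binds MAdCAM-1 in gut vessels, and alpha E beta 7 (CD103) binds E-cadherin on epithelium. Beta 1 pairs with alpha 4 to form VLA-4, a receptor for VCAM-1 and fibronectin, and with alpha 1 to form VLA-1, a collagen receptor known from tissue-resident and effector T cells.

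Total counts per library ran from 11865646 to 35353441. Prmt5 checked the labels: its mean fell in CKO from 65.1 to 30.7 CPM (counts scaled to the total of the library) in thymus DP, from 63.9 to 30.2 in thymus CD4 SP, from 144 to 116 in thymus CD8 SP, from 44.3 to 22.5 in spleen CD4 and from 63.7 to 35.5 in spleen CD8. Relative to WT, this fall was smallest in thymus CD8 SP. Cd3e, a T cell receptor component, was present in every group at means of 401 to 529 CPM. In the spleen the coreceptors matched the labels, with Cd8a at 3.25 CPM in WT CD4 libraries and Cd4 at 5.70 CPM in WT CD8 libraries. The thymus CD4 SP libraries went against their label: WT libraries held Cd8a at 1134 to 1543 CPM and Rag1, a recombinase gene of the DP stage, at 731 to 1771 CPM. There the summed DP-stage markers reached 8186 CPM in library CKO 14, 1259 in library 17 and 3833 in library 23, with WT libraries between 3797 and 6051. Thymus CD8 SP libraries held Rag1 as well, at 703 to 905 CPM. What share of these cells had left the DP stage was not tested.

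Genes were compared with each other on a per-length scale, CPM per kilobase (kb) of the longest coding transcript. In WT thymus DP, Itgal led at 209 ± 3.8 CPM per kb (mean ± SD, n = 3), followed by its partner Itgb2 at 106 ± 6.5 and by Itgb1 at 50.3 ± 2.5. The order changed in the spleen, where Itgb7 was highest in WT CD4 (287 ± 12 CPM per kb) and WT CD8 (283 ± 18), ahead of Itgb2 at 187 ± 1.1 and 166 ± 7.3. Itga4 stood at 118 ± 8.3 and 101 ± 11 CPM per kb in these groups, and in spleen CD4 its range overlapped that of Itgb1 (105 ± 14). The alpha chains best known from myeloid cells were low in WT spleen: Itgam was 1.87 ± 0.18 in CD4 and 0.932 ± 0.36 in CD8, and Itgax 0.742 ± 0.060 and 4.01 ± 1.6. Itga1 had the lowest mean in each WT group, from 0.00568 CPM per kb in DP to 0.220 in spleen CD4, and in thymus CD8 SP its range overlapped that of Itgam. The count table of thymus DP and CD4 SP alone also lists Gm49395 and Gm49368, which overlap Itga1 and Itgam on the same strand over 66649 and 55809 bases. Shared reads cannot be assigned with certainty, and their part in the low levels of Itga1 and Itgam in that table was not tested.

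**Figure D1:**
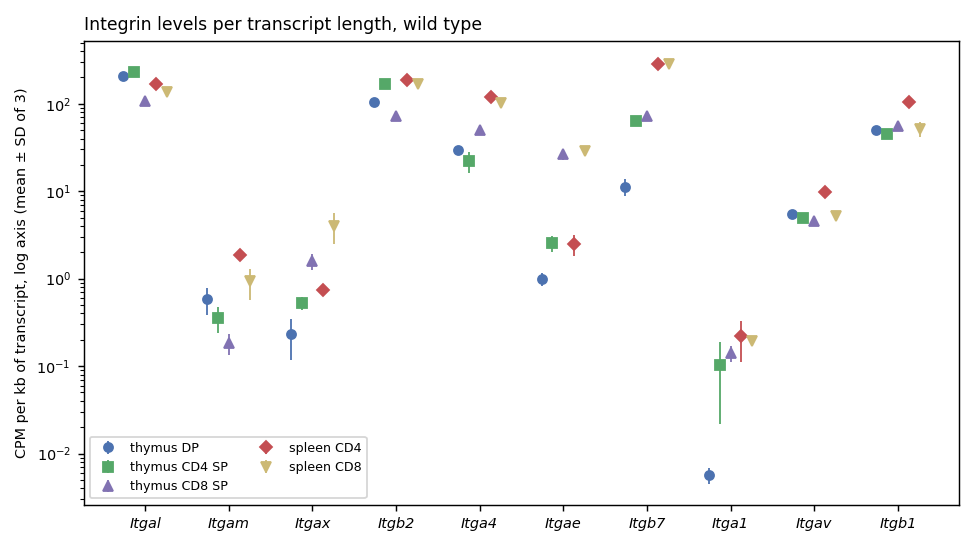
Mean level per kilobase of transcript (log axis, CPM per kb, bars are SD of 3 libraries) of the 10 genes in the 5 WT populations, each with its own symbol. Itgb7 is highest in both spleen populations, Itgal in the 3 thymic ones, and the mean of Itga1 is lowest in every population.

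The comparison of WT CD4 SP with WT DP follows the genes across thymic maturation, with the DP-stage RNA of the CD4 SP libraries described above. Of 9 genes tested 4 were called, all higher in CD4 SP, where 39.8% of all genes were called (2562 higher, 2144 lower); Itga1 did not pass the filter on low counts. A gene was called at an adjusted p under 0.05 in edgeR's quasi-likelihood test with Benjamini-Hochberg adjustment. Itgb7, the partner of alpha 4 and alpha E, was 35.2, 22.5 and 33.1 CPM in DP libraries 15, 18 and 24 and 164, 186 and 160 CPM in the CD4 SP libraries of these numbers, without overlap (log2 2.47 ± 0.15 SE, adjusted p = 7.06e-08). Itgae rose from 3.81 ± 0.68 to 9.81 ± 2.0 CPM (log2 1.34 ± 0.21, adjusted p = 2.57e-04), and Itgb2 from 315 ± 19 to 493 ± 29 CPM (log2 0.64 ± 0.10, adjusted p = 2.85e-04). Itgax rose from 0.946 ± 0.47 to 2.15 ± 0.37 CPM (log2 1.22 ± 0.38, adjusted p = 0.0203), on 10 to 19 reads per DP library, and its call was lost without DP library 15, CD4 SP library 18 or DP library 24 (adjusted p 0.0662, 0.0731 and 0.104). Itga4 was not called (log2 -0.41 ± 0.16, adjusted p = 0.0577), but was called lower under 6 of 12 alternatives, among them the mouse number as a block (log2 -0.44, adjusted p = 0.00513), DESeq2 (adjusted p = 0.0244), limma voom (adjusted p = 0.0289) and the fit without CD4 SP library 15 (log2 -0.65, adjusted p = 0.00215). The beta 2 alpha chain Itgal stayed at 1069 to 1108 CPM in DP and 1059 to 1339 in CD4 SP, overlapping (log2 0.12 ± 0.12, adjusted p = 0.456).

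Between the spleen populations of WT mice, 6 of 10 genes were called, 2 higher and 4 lower in CD8 than in CD4, where 31.9% of all genes were called (2166 higher, 2336 lower). Itgae was 105, 126 and 103 CPM in CD8 of mice 67, 70 and 71 and 7.07, 12.2 and 9.14 CPM in their CD4 cells (log2 3.60 ± 0.15, adjusted p = 4.20e-09). Itgax was also higher in CD8, at 15.4, 22.9 and 10.4 CPM against 3.07, 2.73 and 3.20 (log2 2.48 ± 0.25, adjusted p = 1.04e-05). Neither gene had overlapping groups. Lower in CD8 were Itgb1 (log2 -0.97 ± 0.13, adjusted p = 7.80e-05), Itgav (log2 -0.87 ± 0.08, adjusted p = 4.27e-06), Itgam (log2 -0.97 ± 0.23, adjusted p = 0.00664) and Itgal (log2 -0.25 ± 0.06, adjusted p = 0.00677). Itga4 was not called (log2 -0.18 ± 0.08, adjusted p = 0.0972), but was called lower with the mouse as a block (log2 -0.18, adjusted p = 0.0377), by DESeq2 (adjusted p = 0.0484) and without CD4 library 71 or CD8 library 70 (adjusted p 0.0415 and 0.0364). Markers of macrophages differed in the same direction as Itgam: 8 of 11 were lower in CD8, and their summed level was 21.3 to 33.1 CPM in CD8 against 88.0 to 129 CPM in CD4. Their part in the Itgam difference was not tested. Thymus CD8 SP lies in a table of its own and was not tested against the others. Its WT libraries held Itgae at 85.1 to 112 CPM, a range that overlaps that of spleen CD8 and lies above the other 3 WT populations.

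**Figure D2:**
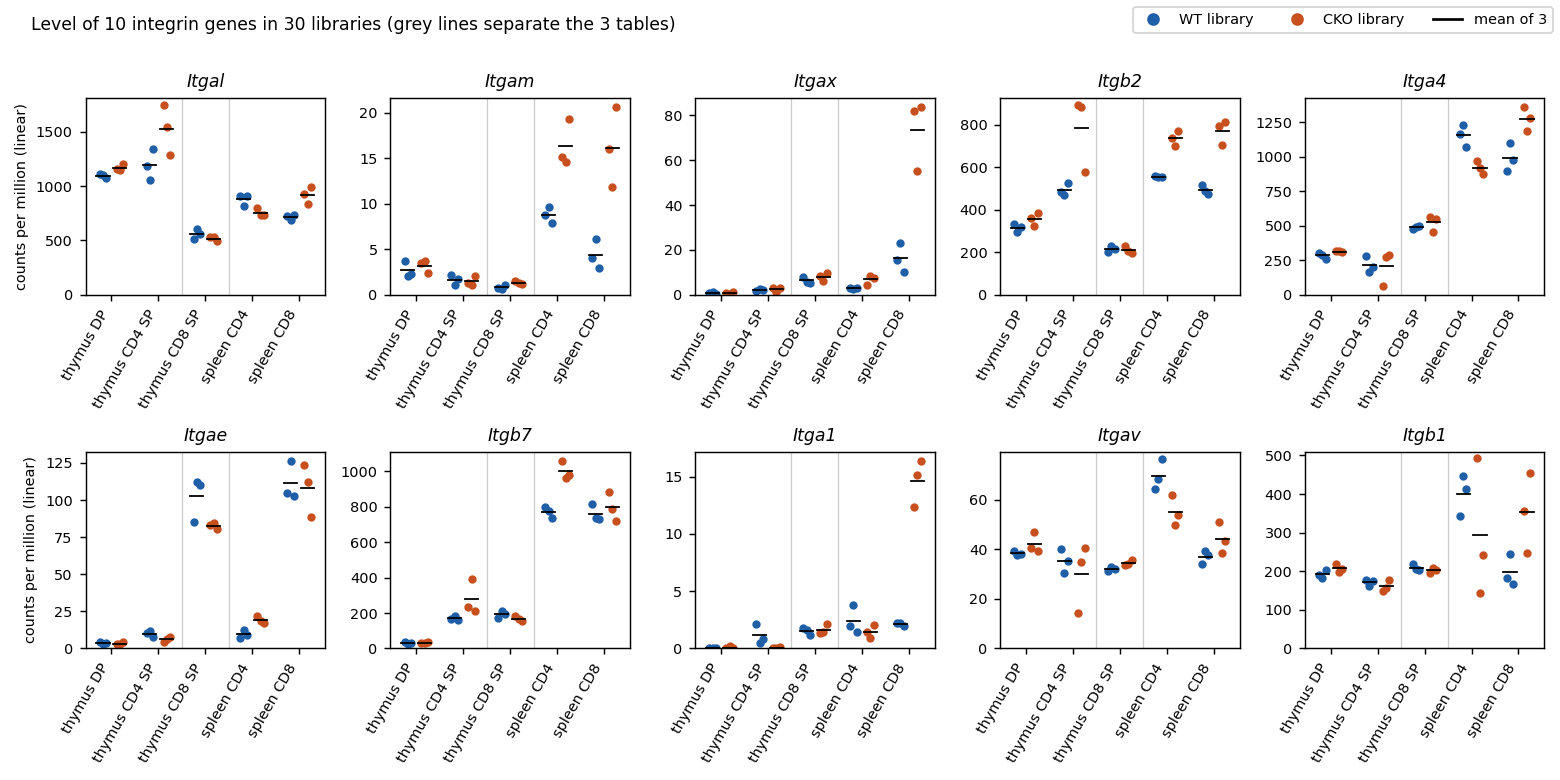
Level of each gene in all 30 libraries (CPM, linear axis; 1 point per library, WT blue and CKO orange, black bar the mean of 3). In spleen CD8 the CKO points of Itga1, Itgax, Itgam and Itgb2 lie apart from WT, while the thymic populations show no gene called between the genotypes.

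In the thymus no integrin gene was called between the genotypes by edgeR. Of 9 tested in DP 0 were called, with 0.0258% of 11634 genes called in all. DESeq2 called 0 of the 9, and in edgeR 1, Itgb2, had an unadjusted p under 0.05, as did 822 genes in all. Its adjusted p in edgeR's quasi-likelihood test was 0.698. In DP the fitted differences ran from log2 -0.22 for Itgae and Itgax to 0.21 for Itgam. All 3 CKO libraries lay above WT for Itga4 (309 to 315 against 262 to 303 CPM) and for Itgal (1144 to 1201 against 1069 to 1108 CPM), with adjusted p = 0.750 and 0.814.

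In thymus CD4 SP 0 of 9 genes were called, and 0% of all 11839 genes; 306 genes and 2 of the 9 had an unadjusted p under 0.05, while DESeq2 called 1 gene in all and 0 of the 9. The 2 were the beta chains. Itgb2 was 482, 471 and 526 CPM in WT 15, 18 and 24 and 892, 882 and 580 CPM in CKO 14, 17 and 23 (log2 0.75 ± 0.25, adjusted p = 0.958). Itgb7 was 164, 186 and 160 CPM in WT and 234, 393 and 211 CPM in CKO (log2 0.78 ± 0.27, adjusted p = 0.958). Both had CKO libraries above all WT libraries, beside a DP-stage marker sum that was lowest in CKO 17 and highest in CKO 14; its part in these values was not tested. Itgae went the other way, with CKO libraries at 4.41, 6.59 and 7.42 CPM below all WT libraries at 10.2, 11.6 and 7.68 CPM (log2 -0.62 ± 0.28, adjusted p = 0.958). CKO 14 stood apart for the alpha chains Itga4 and Itgav, with 64.4 CPM of Itga4 against 273 and 290 in CKO 17 and 23, and 14.4 CPM of Itgav against 35.0 and 40.5. This library had the most counts of the CD4 SP libraries (22881226) but the fewest genes with a count, 13602 against 14243 to 14532 in the others. What that means for its integrin values was not tested. Itga1 had 33, 8 and 12 reads in WT and 0, 0 and 2 in CKO and was not tested. The test of the genotype difference in CD4 SP minus that in DP called 0 of 9 genes and 0% of all 12216 genes, with 263 genes and 0 of the 9 at an unadjusted p under 0.05 and 0 by DESeq2.

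Thymus CD8 SP, where Prmt5 RNA fell least relative to WT, also had 0 of 10 genes called in edgeR. There 0.114% of all genes were called, and 2 of the 10 had an unadjusted p under 0.05, as did 1548 of 14911 genes. Itgae, the alpha chain of CD103, was 85.1, 112 and 110 CPM in WT and 82.8, 84.7 and 80.3 CPM in CKO, the lowest WT value lying just above the highest CKO value (log2 -0.32 ± 0.09, adjusted p = 0.232). DESeq2 called it (adjusted p = 0.0227), as did edgeR without WT 1 (log2 -0.44, adjusted p = 0.00652). Itgb7, its partner, went from 194 ± 19 to 168 ± 13 CPM with overlapping groups (log2 -0.22 ± 0.07, adjusted p = 0.321). Stage markers moved beside them without overlap: the DP-stage sum was 2653 to 2850 CPM in WT and 2895 to 3202 CPM in CKO, and the sum of mature T cell markers 648 to 732 and 563 to 607 CPM. Of these lists 0 genes were called, with 5 of 7 and 3 of 5 at an unadjusted p under 0.05 in edgeR, and their part in the integrin values was not tested. Itgam, at 23 to 33 reads per WT library, had all CKO libraries above WT, 1.32 ± 0.16 against 0.859 ± 0.24 CPM. It was not called (log2 0.62 ± 0.32, adjusted p = 0.554 in edgeR). By Xist and Ddx3y the 3 WT libraries and CKO 1 were male and CKO 2 and 3 female. With sex as a covariate 0 of the 10 genes were called. All female libraries being CKO, that fit compared the genotypes only through CKO 1, so its lack of calls cannot tell sex from genotype.

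**Figure D3:**
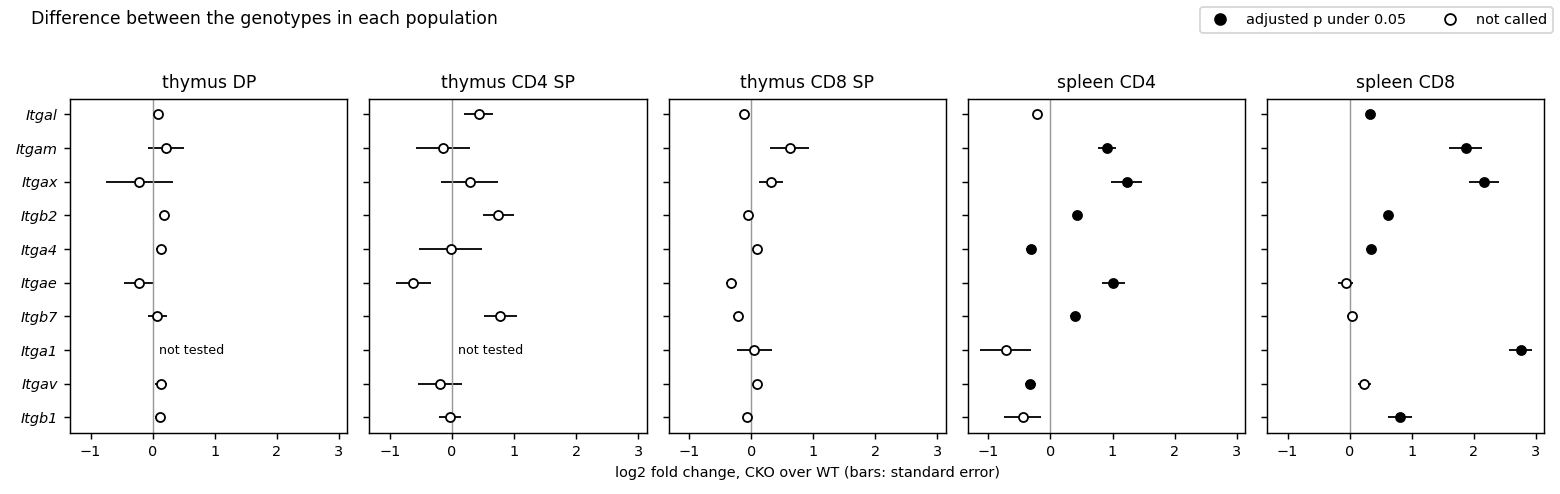
Fitted log2 fold change of CKO over WT with its standard error for each gene in the 5 populations (filled points: adjusted p under 0.05). Filled points occur in the 2 spleen panels only, with 7 in each.

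In spleen CD8 cells 7 of 10 integrin genes were higher in CKO and 0 lower, where 16.1% of all genes were called (1368 higher, 866 lower). Their median log2 fold change over all 10 was 0.48, against -0.01 over all genes. Changes were largest in Itga1, Itgax and Itgam, alpha chains at low level in WT, and smaller in Itgb1, Itgb2, Itga4 and Itgal, which were already abundant. Itgae, Itgav and Itgb7 were not called. In bulk RNA, a different number of cells expressing a gene and a different amount of RNA per cell cannot be told apart.

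Itgam and Itgax, neighbours on chromosome 7, rose in both spleen populations, and Itga1 had the largest rise in spleen CD8 but was not called in spleen CD4, so the promoters of these 3 are shown. Itgal lies on the same chromosome (chr7:127296260-127335138, plus strand, GRCm38), ahead of Itgam (chr7:128062640-128118491, plus strand) and Itgax (chr7:128129547-128150657, plus strand). Itga1 is on the minus strand at chr13:114953096-115101964. Each sequence is RefSeq's (GRCm38.p6), 250 bases before to 50 after a start site that for Itgam and Itga1 is the gene's first base and for Itgax is base 128129550, slightly inside the gene. They are read 5′ to 3′ on the gene's strand: chr7:128062390-128062689 for Itgam, chr7:128129300-128129599 for Itgax and chr13:115101915-115102214 for Itga1. Capitals mark the 5 motifs searched on both strands: GAGGAA (the ETS core bound by PU.1), TGTGGT (RUNX), GGGCGG (GC box of Sp and Klf factors), GGTGTGA (T-box) and GTCTAGAC (Smad).
Itgam: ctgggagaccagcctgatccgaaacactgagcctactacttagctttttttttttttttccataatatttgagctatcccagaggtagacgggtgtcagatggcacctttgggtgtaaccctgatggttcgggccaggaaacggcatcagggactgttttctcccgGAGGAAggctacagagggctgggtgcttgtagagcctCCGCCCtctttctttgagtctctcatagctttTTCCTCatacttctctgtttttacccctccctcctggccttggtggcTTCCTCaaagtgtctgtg
Itgax: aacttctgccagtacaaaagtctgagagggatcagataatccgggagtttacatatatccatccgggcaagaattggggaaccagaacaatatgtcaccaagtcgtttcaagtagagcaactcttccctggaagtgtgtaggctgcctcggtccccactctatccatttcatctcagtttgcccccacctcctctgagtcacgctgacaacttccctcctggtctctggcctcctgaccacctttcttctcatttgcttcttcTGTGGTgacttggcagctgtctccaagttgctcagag
Itga1: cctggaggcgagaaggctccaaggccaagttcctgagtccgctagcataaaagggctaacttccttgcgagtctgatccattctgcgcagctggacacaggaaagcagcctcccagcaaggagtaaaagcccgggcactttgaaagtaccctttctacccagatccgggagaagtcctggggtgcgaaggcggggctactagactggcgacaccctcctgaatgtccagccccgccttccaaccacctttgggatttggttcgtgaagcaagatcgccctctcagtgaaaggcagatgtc
The Itgam promoter holds GAGGAA or its reverse complement at -84, -15 and 32, counted from the start site as 0 to the first matched base, and a reverse GC box at -47; no 2 matches overlap. Itgax holds 1 TGTGGT, at 13, and Itga1 none of the 5. Of all 32851 promoters of this length 28.3% hold GAGGAA, 16.8% TGTGGT, 35.7% GGGCGG, 3.98% GGTGTGA and 0.213% GTCTAGAC. RefSeq promoters were matched for 7 of the 10 genes. A match describes letters in this window and shows no binding.

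Among the beta 2 integrins in spleen CD8, Itgax was 15.4, 22.9 and 10.4 CPM in WT mice 67, 70 and 71 and 82.1, 55.3 and 83.6 CPM in CKO mice 65, 68 and 72 (log2 2.16 ± 0.24, adjusted p = 3.19e-04). Itgam was 4.01, 6.17 and 2.91 CPM in WT and 16.0, 11.8 and 20.6 CPM in CKO (log2 1.87 ± 0.27, adjusted p = 0.00118). For both, CKO 68 was the lowest CKO library and still lay above every WT library. The common chain Itgb2 was 517, 490 and 474 CPM in WT and 796, 703 and 814 CPM in CKO, again without overlap (log2 0.62 ± 0.07, adjusted p = 3.49e-04). Itgal, the LFA-1 alpha chain, was 725, 691 and 732 CPM in WT and 923, 837 and 990 CPM in CKO (log2 0.33 ± 0.07, adjusted p = 0.0105). Its groups did not overlap, but the call was lost without WT 70 (adjusted p = 0.0581). Per kb, CKO cells held Itgal at 176 ± 15, Itgax at 18.2 ± 3.9 and Itgam at 3.45 ± 0.94 CPM, so LFA-1's alpha chain remained the most abundant partner of beta 2 among these.

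The collagen receptor chain Itga1 gave the largest difference: 61, 57 and 52 reads in WT CD8 libraries (2.24, 2.19 and 1.96 CPM) and 325, 391 and 416 in CKO (12.4, 15.1 and 16.4 CPM), a 6.75-fold rise (log2 2.75 ± 0.18, adjusted p = 2.03e-05). Each CKO library lay far above every WT library. The gene Pelo lies inside Itga1 on the same strand, and reads where they overlap cannot be assigned with certainty; Pelo itself was at 6.08 to 12.5 CPM over the 12 spleen libraries. Its partner Itgb1 was 183, 244 and 167 CPM in WT and 357, 247 and 454 CPM in CKO. The lowest CKO library, CKO 68, lay just above the highest WT library, WT 70 (log2 0.81 ± 0.19, adjusted p = 0.0171). That call was lost without CKO 72, WT 67 or WT 71 (adjusted p 0.0652, 0.0888 and 0.0762) and in a fit over all 12 spleen libraries (adjusted p = 0.0880). Itgav, the chain of vitronectin receptors, was 34.3 to 39.5 CPM in WT and 38.8 to 51.2 CPM in CKO, overlapping (log2 0.23 ± 0.10, adjusted p = 0.161).

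Of the gut-homing and CD103 chains, only Itga4 was called in spleen CD8. Itga4 was 894, 1098 and 974 CPM in WT and 1361, 1184 and 1283 CPM in CKO, without overlap (log2 0.35 ± 0.08, adjusted p = 0.0144), and its call was lost without CKO 72, WT 67 or WT 71 (adjusted p 0.0513, 0.0597 and 0.0658). Itgae was 105, 126 and 103 CPM in WT and 124, 112 and 88.8 CPM in CKO, so the groups overlapped (log2 -0.07 ± 0.11, adjusted p = 0.758). Itgb7 was 731 to 817 CPM in WT and 718 to 884 CPM in CKO, overlapping as well (log2 0.04 ± 0.08, adjusted p = 0.763).

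Spleen CD4 cells had 7 of 10 genes called too, with 14.2% of all genes called (1219 higher, 805 lower), but 5 were higher and 2 lower in CKO. The median over the 10 was log2 0.09, against -0.01 over all genes. Itgae, Itgb7, Itgb2, Itgam and Itgax rose, and Itga4 and Itgav fell. Itga1, Itgal and Itgb1 were not called.

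Both chains of CD103 rose in spleen CD4. Itgae was 7.07, 12.2 and 9.14 CPM in WT and 21.6, 18.6 and 16.8 CPM in CKO (log2 1.02 ± 0.18, adjusted p = 0.00290). Itgb7 was 800, 773 and 734 CPM in WT and 1060, 962 and 980 CPM in CKO (log2 0.39 ± 0.07, adjusted p = 0.00255). Neither had overlapping groups, and both calls held with each library left out. Even so, Itgae in CKO CD4 cells stayed below the 88.8 to 126 CPM of all spleen CD8 libraries. Itga4, the other alpha chain of beta 7, went the other way, from 1167, 1231 and 1070 CPM in WT to 969, 918 and 875 CPM in CKO (log2 -0.32 ± 0.07, adjusted p = 0.0121). Its groups were apart, but the call was lost without CKO 72 or WT 70 (adjusted p 0.0612 and 0.0715). Of the CD8-lineage markers in spleen CD4, Cd8b1 was called higher in CKO (log2 0.82 ± 0.12, adjusted p = 0.00115), and Cd8a and Runx3 were not called. The part of CD8 cells in the Itgae rise was not tested.

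Of the beta 2 group in spleen CD4, Itgb2, Itgax and Itgam rose. Itgb2 was 558, 552 and 553 CPM in WT and 739, 701 and 772 CPM in CKO (log2 0.42 ± 0.06, adjusted p = 0.00118). Itgax was 3.07, 2.73 and 3.20 CPM in WT and 4.61, 8.57 and 7.72 CPM in CKO (log2 1.23 ± 0.25, adjusted p = 0.00752), with CKO 65 closest to WT. Itgam was 8.80, 9.61 and 7.90 CPM in WT and 15.1, 14.6 and 19.4 CPM in CKO (log2 0.91 ± 0.15, adjusted p = 0.00218). These 3 had no overlap and kept their calls with each library left out. Itgal had lower CKO than WT libraries, 734 to 796 against 818 to 910 CPM, and was not called (log2 -0.21 ± 0.07, adjusted p = 0.0587); DESeq2 and limma voom called it (adjusted p 0.0182 and 0.0482).

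For the beta 1 group, spleen CD4 libraries of the same genotype differed widely. Itgb1 was 343, 446 and 412 CPM in WT 67, 70 and 71 and 493, 145 and 242 CPM in CKO 65, 68 and 72, the highest and the 2 lowest libraries all being CKO (log2 -0.45 ± 0.30, adjusted p = 0.367). Without CKO 65 it was called lower (log2 -1.03, adjusted p = 0.00128). Itga1 was low in all 6 libraries, 1.47 to 3.77 CPM in WT and 0.908 to 2.02 CPM in CKO, overlapping (log2 -0.72 ± 0.41, adjusted p = 0.277). Itgav was 64.5, 68.5 and 76.5 CPM in WT and 62.1, 49.9 and 53.8 CPM in CKO (log2 -0.33 ± 0.09, adjusted p = 0.0276). That call was lost without CKO 68, CKO 72, WT 70 or WT 71 (adjusted p 0.0807, 0.0804, 0.0774 and 0.129).

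Whether the genotype difference itself differed between CD8 and CD4 cells of the same mice was tested as an interaction over the 12 spleen libraries. It called 4 of 10 genes, 3 higher and 1 lower in CD8, where 2.56% of 14958 genes were called (271 higher, 112 lower). Itga1 had the largest difference (CD8 minus CD4, log2 3.47 ± 0.45, adjusted p = 6.82e-04). Itga4 (called higher in CD8 and lower in CD4) and Itgal (called higher in CD8, not called in CD4) differed by log2 0.66 ± 0.11 (adjusted p = 0.00347) and 0.54 ± 0.10 (adjusted p = 0.00639). Itgae, called higher in CD4 and not called in CD8, differed by log2 -1.08 ± 0.22 (adjusted p = 0.0142).

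Numbers in the titles tie each CD4 library to the CD8 library of the same mouse, and with the mouse as a block the interaction called 8 of 10 genes. Added were Itgav (log2 0.56, adjusted p = 7.82e-04), Itgb1 (log2 1.39, adjusted p = 0.00169), Itgb7 (log2 -0.35, adjusted p = 0.00522) and Itgam (log2 0.97, adjusted p = 0.00784). Without the block these 4 had adjusted p of 0.0509, 0.190, 0.0988 and 0.191. The block also raised the calls over all genes, to 672 higher and 411 lower. For Itgax (log2 0.94, adjusted p = 0.312) and Itgb2 (log2 0.20, adjusted p = 0.393) neither fit gave a call, which does not show that they moved equally.

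**Figure D4:**
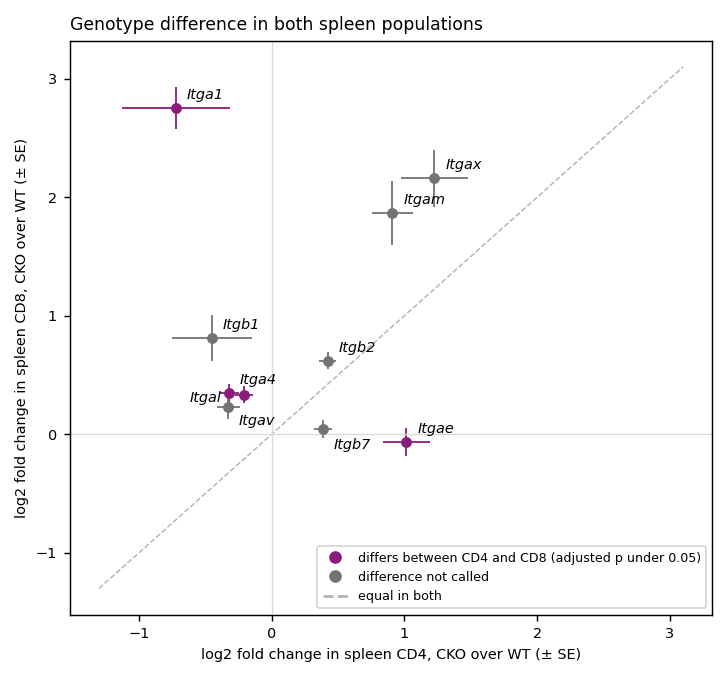
Log2 fold change of CKO over WT in spleen CD4 (x axis) and spleen CD8 (y axis), with standard errors; purple genes differ between the populations without the mouse as a block, and the dashed line marks equal change. Itga1 lies far above the line, Itgae below it, and Itgax, Itgam and Itgb2 are positive on both axes.

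Genes of other cell types were read beside these rises, since alpha M and alpha X are also abundant on macrophages, dendritic cells and NK cells. In spleen CD4, 10 of 11 macrophage and monocyte markers were higher in CKO (median log2 1.28), and none of the 11 was at 0 in any library. Their summed level was 129, 90.2 and 88.0 CPM in WT 67, 70 and 71 and 258, 147 and 352 CPM in CKO 65, 68 and 72. Itgam was highest in CKO 72 and lowest in CKO 68, as this sum was, whereas Itgax was lowest in CKO 65. In spleen CD8 the sum was 21.3 to 33.1 CPM in WT and 53.8, 36.6 and 66.7 CPM in CKO 65, 68 and 72, with 3 of 11 called higher (Adgre1, Cd68 and C1qb). The part of these cells in the integrin values was not tested.

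In spleen CD4 the NK cell markers summed to 31.0 to 38.1 CPM in WT and 33.6 to 46.0 CPM in CKO. There 3 of 6 were called higher (Ncr1, Tyrobp and Fcer1g) and 1 lower (Klrb1c). Tyrobp and Fcer1g are not particular to NK cells. In spleen CD8 the NK cell markers summed to 96.5 to 104 CPM in WT and 118 to 175 CPM in CKO, and 4 of 6 were called higher. Ncr1, a defining NK receptor, was at 0.264 to 0.662 CPM in WT and 1.56 to 1.81 in CKO spleen CD8. Most of that sum was Eomes, which CD8 T cells also express (85.3 to 87.3 CPM in WT, 92.7 to 129 CPM in CKO, adjusted p = 0.0660), and the other 5 markers summed to 11.3 to 16.8 CPM in WT and to as much as 45.8 CPM in CKO, where every library lay above WT. Dendritic cell markers summed to at most 3.48 CPM in any spleen library and at most 0.912 CPM in spleen CD8, with Clec10a at 0 throughout, and neutrophil markers to at most 0.809 CPM, with Ly6g at 0 throughout. In spleen CD4 genes of effector and memory T cells summed to 313 to 334 CPM in WT and 231 to 376 CPM in CKO. There 3 of 10 were called higher, beside 14.2% of all genes. Genes of effector and memory T cells were higher in CKO spleen CD8 for 9 of 10, with sums of 880, 983 and 763 CPM in WT and 1838, 1422 and 2127 CPM in CKO. CKO 68 was lowest and CKO 72 highest of the CKO libraries in this sum, in the NK and macrophage sums and in Itgam, Itgax and Itgb1, whereas Itga1 was lowest in CKO 65. Of innate-like and gamma delta T cell genes, Tcrg-C2, a constant region of the gamma chain, was 2.07 to 2.83 CPM in WT and 16.9 to 24.2 CPM in CKO spleen CD8. In spleen CD4 the sum of that list went the other way, from 19.1 to 21.7 CPM in WT to at most 9.29 CPM in CKO, with Zbtb16, the factor of innate-like T cells, called lower (log2 -2.73 ± 0.16, adjusted p = 1.67e-06). What each of these cells or states contributed to the integrin values was not tested.

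**Figure D5:**
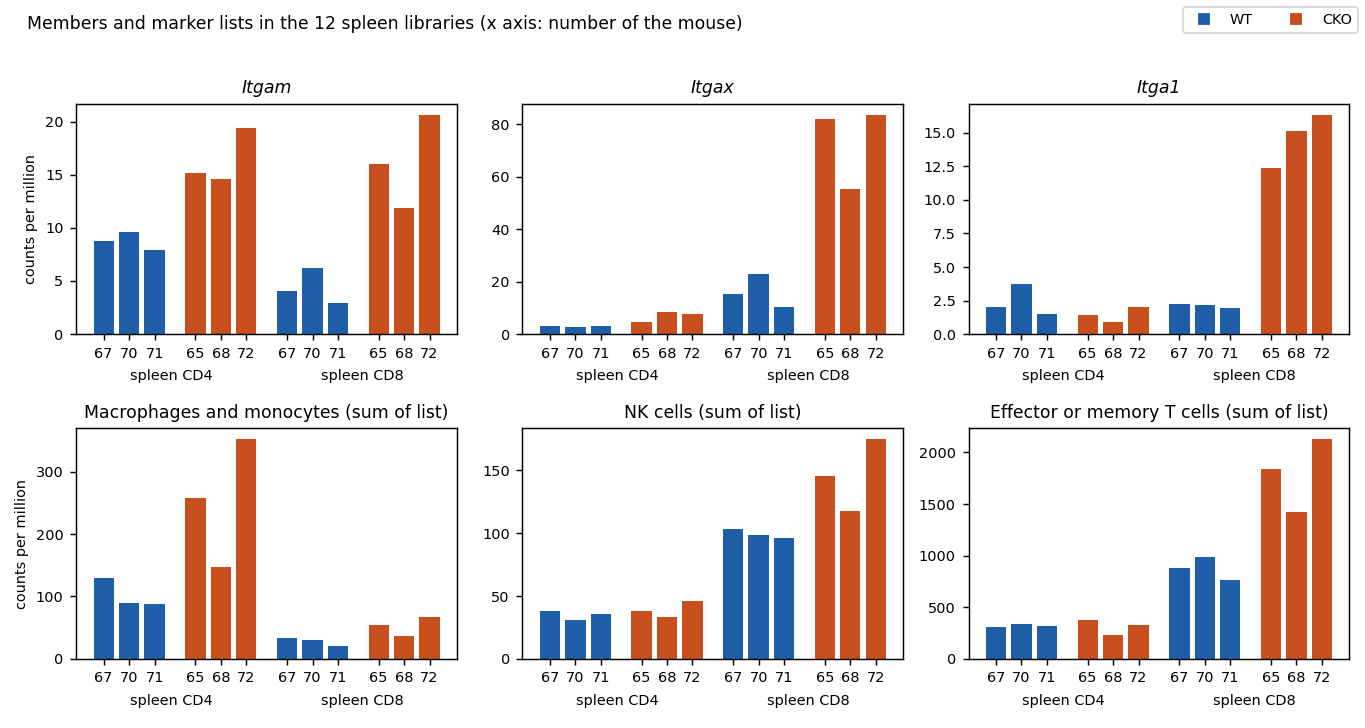
Bars give CPM of Itgam, Itgax and Itga1 and the summed CPM of 3 marker lists in each of the 12 spleen libraries, named by mouse number (WT blue, CKO orange; the axes start at 0). In spleen CD4 the macrophage sum reaches 352 CPM in CKO 72; in spleen CD8 the effector sum and Itgax are lowest in CKO 68 among the CKO mice.

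The 16 other integrin subunit genes also moved in the spleen. In spleen CD4 12 passed the filter, 6 rose and 2 fell (median log2 0.80), where 14.2% of all genes were called. In spleen CD8 11 passed, 5 rose and 2 fell (median log2 0.89), where 16.1% were called. Itgb3, the beta chain that pairs with alpha V and alpha IIb, rose from 160 ± 14.9 to 289 ± 26.4 CPM in CD4 (log2 0.86 ± 0.09, adjusted p = 7.34e-05) and in CD8 from 27.3 ± 1.19 CPM in WT (log2 1.11 ± 0.10, adjusted p = 1.16e-04). Itga2b, its alpha IIb partner known from platelets, rose by log2 1.46 ± 0.16 in CD4 and 1.08 ± 0.15 in CD8, and was the only gene of the platelet list that passed the filter in either. Itga10 rose by log2 1.49 ± 0.14 and 1.22 ± 0.16. Itgb8, which with alpha V activates TGF-beta, fell in CD4 from 8.44 ± 2.75 CPM in WT (log2 -1.43 ± 0.26, adjusted p = 0.00358). Itga6, a laminin receptor chain, fell in CD8 from 131 ± 3.4 to 102 ± 7.1 CPM (log2 -0.39 ± 0.07, adjusted p = 0.00347).

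Over all genes, 14.2% were called in CD4 and 16.1% in CD8, to set beside the counts that follow. Of integrin ligands, 2 of 8 rose and 2 fell in spleen CD4, and 2 of 7 rose and 1 fell in CD8. Cdh1, the E-cadherin gene and ligand of CD103, rose from 2.85 ± 0.64 to 9.39 ± 0.85 CPM in spleen CD8 (log2 1.70 ± 0.20, adjusted p = 4.19e-04). It also rose in spleen CD4 (log2 1.82 ± 0.45, adjusted p = 0.0192), and the interaction did not call it (log2 -0.13 ± 0.38). Vcam1, the VLA-4 ligand and also 1 of the 11 macrophage markers, rose in spleen CD4 from 23.3 ± 6.45 to 64.5 ± 29.2 CPM (log2 1.48 ± 0.29, adjusted p = 0.00586). Inside-out activation switches integrins to high affinity. Of 17 genes acting in it, not all of them activators, 1 rose and 1 fell in CD4 and 2 rose in CD8. These counts are close to the shares over all genes. Rasgrp2, the exchange factor for Rap1, rose in CD4 (log2 0.95 ± 0.13, adjusted p = 6.15e-04), and Mob1b fell there (log2 -0.34 ± 0.10, adjusted p = 0.0359). Sipa1 (log2 0.34 ± 0.07, adjusted p = 0.00593) and Fermt3, which encodes kindlin-3 (log2 0.27 ± 0.06, adjusted p = 0.0151), rose in CD8. Among 10 genes of integrin inhibition, recycling and other regulation, 0 were called in CD4 by edgeR (2 at an unadjusted p under 0.05). Cyth1, which is not an inhibitor of integrins, fell in CD8 (log2 -0.26 ± 0.06, adjusted p = 0.0131). Of 15 genes of the adhesion complex, 2 rose and 2 fell in CD4 and 2 rose and 1 fell in CD8. Ptk2, focal adhesion kinase, fell in both, by log2 -0.62 ± 0.16 (adjusted p = 0.0206) and -1.33 ± 0.16 (adjusted p = 4.57e-04).

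Transcription factors and signals known to act on integrin genes in T cells were called for 8 of 20 higher and 2 lower in spleen CD8, beside 16.1% of all genes. In spleen CD4 1 was higher and 2 lower, a share close to the 14.2% of all genes. Tbx21, which encodes T-bet, rose in CD8 from 27.7 ± 4.4 to 73.7 ± 15 CPM (log2 1.39 ± 0.15, adjusted p = 2.87e-04). Runx2 (log2 1.29 ± 0.15, adjusted p = 3.23e-04), Prdm1, which encodes Blimp-1 (log2 1.53 ± 0.22, adjusted p = 0.00123), and Smad3, a TGF-beta effector (log2 0.60 ± 0.10, adjusted p = 0.00195), rose too. Klf2, a regulator of T cell trafficking, rose in CD4 (log2 0.35 ± 0.08, adjusted p = 0.0109) and fell in CD8 (log2 -0.31 ± 0.07, adjusted p = 0.0107). The interaction called 5 of the 20 higher in CD8 and 1 lower, beside 2.56% of all genes, with Klf2 at log2 -0.66 ± 0.10 (adjusted p = 0.00257) and Bhlhe40 at 2.01 ± 0.33 (adjusted p = 0.00317). In the 3 thymic populations 0 genes of these lists were called between the genotypes by edgeR, and in each population 0 to 4 genes of each list had an unadjusted p under 0.05 (DESeq2 was not summarised for lists).

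The genes whose level followed each integrin most closely over the 12 spleen libraries were found by the mean absolute difference of centred log2 CPM, among 12121 genes and as a description. Libraries share mice, depth and cell population. Nearest to Itga1 were Pik3ap1, Il12rb2 and Klrk1, at 0.39, 0.40 and 0.43, where Itga1 itself deviated by 1.15 from its mean. Itgae lay nearest to Klrd1, Mcoln2 and Ncf1, at 0.21, 0.24 and 0.26 with its own deviation at 1.54. Itgax lay nearest to Gzma, Ncald and Lrrk1, at 0.40 each. For Itgam they were E2f2, Fam129b and Anxa4 (0.22, 0.24 and 0.25, own deviation 0.70), and for Itgb1 Slc43a3, Ccdc50 and Pcgf2 (0.23, 0.24 and 0.24, own deviation 0.51). Itgb2, Itgb7, Itgal, Itga4 and Itgav deviated by only 0.14 to 0.29, with nearest genes Mdm1, Arid3b, Gabarapl2, Scly and Cbx6 in this order. No integrin's 3 nearest genes included another integrin of the 10.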

How the data were processed

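The authors deposited raw read counts per gene in 3 tables. Per the submitters' processing notes, HISAT2 and HTSeq were used with GRCm38. Their versions, the annotation and whether counting used strand: not given in the sources used here. Reads of Itga4 and Cerkl, and of Itgae and Haspin, which overlap on opposite strands, can therefore not be told apart with certainty. Per the labels' protocols, a directional kit was used after poly(A) selection. Levels are CPM of deposited counts, and gene lengths and positions come from GENCODE M21. Tests used edgeR 4.0.16 in R 4.3.3 within a table (filterByExpr, TMM, quasi-likelihood test, Benjamini-Hochberg adjustment over all genes tested), 6 libraries per comparison and 12 for an interaction; SE is log2 fold change over the square root of F. These tests were also run on simulated counts, drawn independently for each library, so libraries sharing a mouse were not reproduced. No result of that run is used here. P-values measure spread between 3 mice a group. Alternatives were DESeq2 1.42.0, its size factors, limma 3.58.1 voom with quality weights, other filters, each library left out, all 12 libraries, a block and sex. In the spleen, deviations from group means correlated at 0.107 to 0.647 between libraries with the same mouse number, against at most 0.0806 for other mice. In thymus DP and CD4 SP they correlated at -0.246 to 0.289 for the same number and -0.298 to 0.227 for other numbers. These thymus ranges overlap, so the correlations there do not show the pairing. Same-numbered thymus libraries matched in sex by Ddx3y, and numbers were taken as mice in both organs. The text names all 10 integrins, up to 4 called genes of each list with the smallest p (given in part), and the 3 nearest genes. Members and lists were chosen with earlier results of these data known.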

Additional observations from a re-analysis of the deposited data

Results flagged for a closer look

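In the spleen, 4 integrin genes had a genotype difference that differed between CD8 and CD4 cells by the interaction test in edgeR (log2, CD8 minus CD4): Itga1 at 3.47, Itga4 at 0.66, Itgal at 0.54 and Itgae at -1.08. In 5 genes all CKO libraries lay above WT in at least 1 population and below WT in another, and only Itga4 was called in both directions. How many of all genes do so was not counted. With 3 libraries a group, such separation can arise without a genotype difference, so the count is a description only. Differences between tables were not tested. Itgav was above in thymus CD8 SP (log2 0.10, not called) and below in spleen CD4 (log2 -0.33). Itgae was above in spleen CD4 (log2 1.02) and below in thymus CD4 SP (log2 -0.62) and thymus CD8 SP (log2 -0.32), neither thymic value being called. Itga4 was above in thymus DP (log2 0.13, not called) and spleen CD8 (log2 0.35) and below in spleen CD4 (log2 -0.32). Itgal was above in thymus DP (log2 0.0905, not called) and spleen CD8 (log2 0.33) and below in spleen CD4 (log2 -0.21, not called). Itga1 was above in spleen CD8 (log2 2.75) and below in thymus CD4 SP, where it was too low to test.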

How the results depend on the processing

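Of 28 called results for single genes 22 kept direction and call under every alternative that tested them, 6 lost the call under at least 1, and 0 reversed; 12 results without a call gained one under at least 1 alternative. In thymus CD8 SP, 0 of 10 genes were called, against 1 with DESeq2 (Itgae), 2 with no filter (Itgae and Itgb7) and 0 to 1 with a library left out; over all genes the calls were 17, 205 with DESeq2, 450 with no filter, 3 with sex as a covariate and 1 to 48 with a library left out. The spleen interaction called 4 genes, 9 with no filter, 8 with the mouse as a replicate block and 4 to 6 with a library left out; over all genes the calls were 383, 637 with DESeq2, 844 with no filter, 1083 with the block and 244 to 549. Thymus DP had 3 calls in all, 14 with DESeq2, 0 in the fit of 12 libraries and 1 to 40 with a library left out. Spleen CD4 had 2024, with 1085 to 2144, and spleen CD8 2234, with 1315 to 2298. In the WT comparisons the block called 5 genes in the thymus (4 without it) and 7 in the spleen (6 without it), each adding Itga4. It called 0 genes in the thymus interaction. In thymus CD8 SP the title numbers of WT and CKO link nothing stated; same-numbered libraries had correlations of 0.0748 to 0.182, other numbers at most 0.0102, and that block called 0 genes. Causes were not tested. Low counts limit Itga1, Itgam and Itgax in thymus DP and CD4 SP.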
